A study of Mus musculus with 2 samples.

Results

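Kinesins are the motor proteins that walk along microtubules, and the family described here was taken as every protein-coding gene whose GENCODE symbol is Kif followed by a digit, whatever its level. The rule found 39 of the 21474 protein-coding genes in the tables, which list 43346 genes in all. It keeps Kif1bp, which encodes a protein that binds kinesins and has no motor domain of its own, and it leaves out kinesins named otherwise, such as Kifc1 and Cenpe. The members were sorted by known role into 10 axonal members, 12 mitotic members, 7 members known from cilia, 4 that carry cargo in many cell types, and 6 others.

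Neural tubes were taken from B6NCrl embryos, an inbred mouse strain, 15.5 days into development. Replicate 1 was prepared from 78 pooled embryos of both sexes and replicate 2 from 62. These 2 libraries form 1 group, with no treatment and no genotype to compare, so each comparison below is between genes or between the pools, and none carries a test. Total RNA longer than 200 nucleotides was sequenced from 10 ng per library with added spike-ins, and the expected counts of all genes summed to 34678043 in replicate 1 and 41355355 in replicate 2. Of the tissue's own markers, 15 of 15 pan-neuronal genes and 13 of 15 progenitor genes reached 1 TPM in both libraries. Over all protein-coding genes the share was 63.4%. TPM counts a gene's transcripts relative to all transcripts of a library and is corrected for gene length, so it allows levels of different genes to be compared.

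A kinesin uses ATP to pull on a microtubule, and most members move toward the fast-growing plus end. In a neuron the plus ends point to the axon tip, so kinesins carry vesicles, mitochondria and RNA away from the cell body. In a dividing cell other members build the spindle, move the chromosomes and close the cleavage furrow, and some of these also act on the microtubules of neurons that no longer divide.

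With at least 1 TPM required of each library, 33 of the 39 members were detected, against 63.4% of all protein-coding genes. The 6 members below that level in at least 1 library were Kif12, Kif14, Kif19a, Kif27, Kif28 and Kif2b. Without Kif1bp, 32 of 38 members were detected. All 10 axonal members were detected and they carried most of the family's transcripts: 80.4% of the summed TPM of the 39 members in replicate 1 and 85.5% in replicate 2. The 12 mitotic members carried 9.02% in replicate 1 and 3.15% in replicate 2. The cilium members together held 1.17% and 0.911%, the other cargo members 0.874% and 0.776%, and the remaining 6 members 8.57% and 9.69%.

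**Figure D1:**
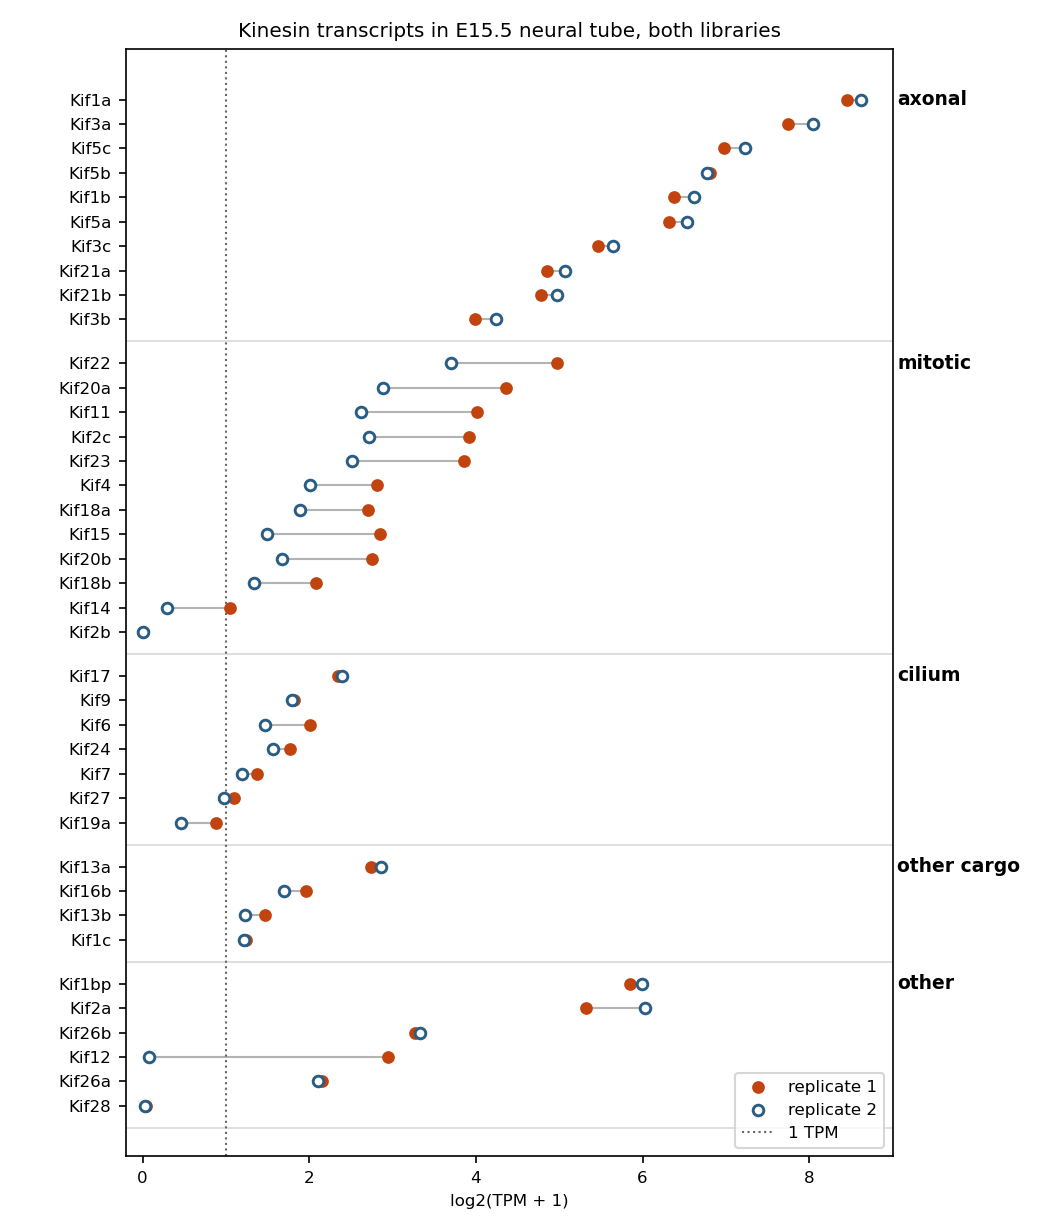
Level of each of the 39 members as log2(TPM + 1) in replicate 1 (filled) and replicate 2 (open), grouped by role and ordered within a role by mean TPM; the dotted line marks 1 TPM. The axonal members lie between 14.9 and 392 TPM, and the mitotic members, with Kif2b at 0, lie at 30.5 TPM or less and are higher in replicate 1.

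Among the axonal members, Kif1a had the highest level of the family, 350.1 TPM in replicate 1 and 391.6 TPM in replicate 2 (371 ± 29.3, SD, n = 2). Kif1a carries the precursors of synaptic vesicles down the axon. The gene lies on chromosome 1 (93015464 to 93101951, minus strand, GRCm38). It stood at the 98.5th percentile of protein-coding genes by mean TPM. Its relative Kif1b, which carries mitochondria and synaptic vesicle precursors, had 81.98 and 96.93 TPM. The ratio of Kif1a to Kif1b in TPM was 4.27 in replicate 1 and 4.04 in replicate 2.

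The kinesin-1 heavy chains, the classical motors of fast axonal transport, were all abundant. Kif5c, the form enriched in motor neurons, had 124.6 TPM in replicate 1 and 148.6 TPM in replicate 2. Kif5b, which cells of all kinds express, had 111.5 and 108.3 TPM, and was the only axonal member that was higher in replicate 1. Kif5a, a neuronal form whose mutations cause spastic paraplegia in humans, had 79.02 and 91.37 TPM. In TPM the order was Kif5c above Kif5b above Kif5a in both libraries. By expected counts, which are not divided by length, Kif5a (10888 and 15028) stood above Kif5b (8112 and 9218). The model Kif5b-202, of 2006 nt, held 64.23 and 62.44 TPM of the Kif5b level, so the place of Kif5b in TPM rests on it. The ratio of Kif5c to Kif5b was 1.24 ± 0.18 (SD over 2 libraries), and that of Kif5a to Kif5c was 0.624 ± 0.014. The TPM ranges of these 3 genes over the libraries did not overlap, although Kif5c in replicate 1 stood only 1.12 times above Kif5b.

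The kinesin-2 motors differed more widely among themselves. They drive transport inside cilia and also carry cargo in axons, as a pair of motor subunits joined by the adaptor Kifap3. Kif3a had 214.1 TPM in replicate 1 and 264.0 TPM in replicate 2. Its usual partner Kif3b had 14.91 and 17.97 TPM, and the neuronal partner Kif3c had 43.3 and 48.9 TPM. In TPM, Kif3a was thus 14.5 ± 0.24 times Kif3b, and Kif3c was 2.81 ± 0.13 times Kif3b (SD over 2 libraries). Kifap3 had 91.73 and 107.7 TPM, which is 0.418 ± 0.014 of Kif3a. An antisense gene, 1110002L01Rik, overlaps 35.3% of the exonic bases of Kif3c, and without knowledge of strand use its reads cannot be told from those of Kif3c.

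Kif21a and Kif21b, kinesin-4 members that bind microtubule ends and limit their growth, were nearly level in TPM. Kif21a had 27.98 TPM in replicate 1 and 32.58 TPM in replicate 2, and Kif21b had 26.52 and 30.38 TPM. Their ratio was 1.06 ± 0.01, but it turned over in CPM, which scale counts by library size and not by gene length: the log2 ratio of Kif21a to Kif21b was 0.09 in TPM and -0.41 in CPM, since the Kif21b transcripts are longer.

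The rank of the highest members depended on short transcript models. A gene's TPM is the sum over its annotated transcripts, and a short model gains much TPM from few reads. For Kif1a, 72.4% of TPM in replicate 1 and 73.0% in replicate 2 came from transcripts under 1000 nt, although these held only 13.9% and 14.3% of its expected counts. The model Kif1a-206 alone, of 528 nt with a coding length of 327 nt, took 51.1% and 52.3% of the gene's TPM on 1703 and 2326 expected counts. The long coding transcript Kif1a-204, of 8206 nt with a coding length of 5091 nt, took 17.3% and 16.9% of TPM on 10861 and 14185 expected counts. Whether the short models are real transcripts was not tested.

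With transcripts of 2000 nt or more only, an alternative chosen after seeing the data, the order of the leading members changed. Kif5c then led the family with 124.4 TPM in replicate 1 and 148.0 TPM in replicate 2. Kif3a followed with 122.6 and 128.5 TPM, then Kif5b with 104.6 and 100.3 TPM. Next came Kif1a with 96.79 and 105.7 TPM. Kif5c was above Kif3a in each library, though only narrowly in replicate 1 and with overlapping ranges, and Kif5b and Kif1a changed places between the libraries. The place of Kif5b depended on the limit, since its model Kif5b-202 is 2006 nt long and held 64.23 and 62.44 TPM. Its longest transcript, Kif5b-201, had 40.32 and 37.82 TPM. The ratio of Kif1a to Kif1b was then 1.77 ± 0.06 and that of Kif3a to Kif3b 7.69 ± 0.76 (SD over 2 libraries). Kifap3 then stood at 0.793 ± 0.063 of Kif3a and Klc1 at 8.81 ± 0.21 times Klc2.

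**Figure D2:**
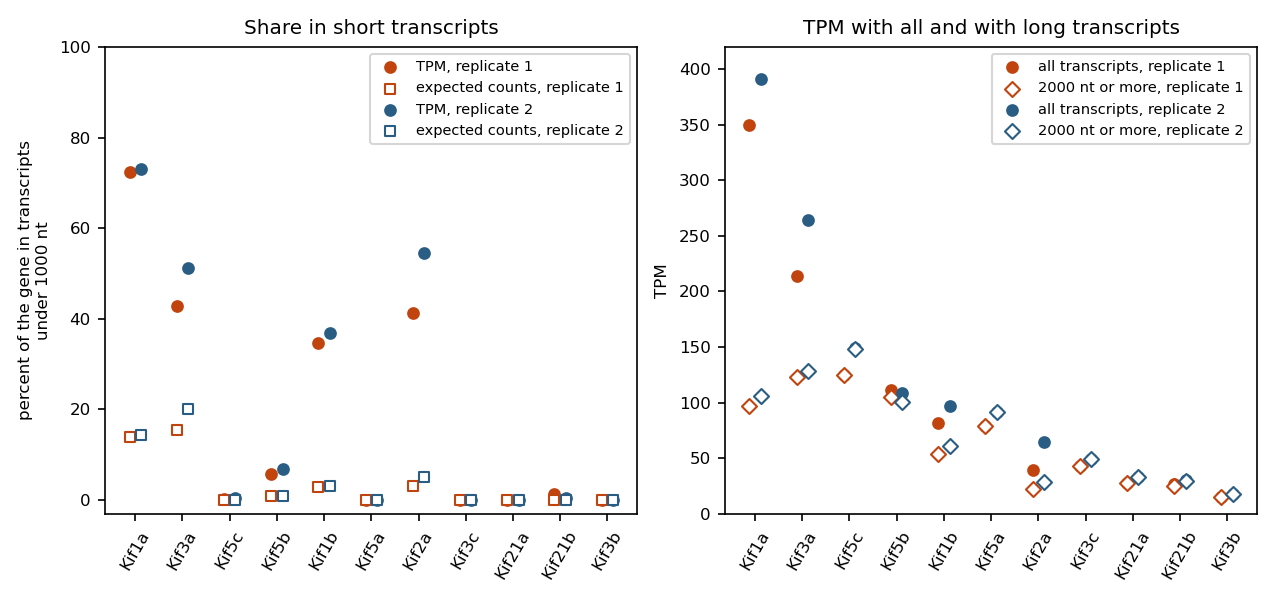
Left, percent of each gene's TPM (circles) and expected counts (squares) that fell in transcripts under 1000 nt, for the axonal members and Kif2a; right, TPM with all transcripts (circles) and with transcripts of 2000 nt or more (diamonds), in both libraries. Kif1a has 72.4% and 73.0% of its TPM in short transcripts, and Kif5c, Kif5a, Kif3c, Kif21a and Kif3b less than 1%.

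Kif3a had several transcripts of similar weight. Kif3a-206, of 770 nt and annotated as a target of nonsense-mediated decay, took 29.96% of the TPM in replicate 1 and 33.4% in replicate 2. Kif3a-203, a coding transcript of 3161 nt, took 28.8% and 28.6%. Kif3a-201 took 22.7% and 9.55%, and the closely related Kif3a-208 had no TPM in replicate 1 and 6.16% in replicate 2, so the split between similar models was unsteady. Kif5b was split between Kif5b-202, a coding model of 2006 nt, with 57.6% in both libraries, and the full transcript Kif5b-201 of 6032 nt with 36.2% and 34.9%. For Kif21b, Kif21b-204, annotated as a target of nonsense-mediated decay although its coding length is 4917 nt, took 52.7% and 53.0%, and the coding Kif21b-201 took 40.1% and 40.3%. For Kif1b, the coding Kif1b-203 of 10233 nt took 49.8% and 52.1%, and the retained intron Kif1b-205 of 587 nt took 32.2% and 33.3%. Kif5a, Kif3c and Kif3b each have 1 annotated transcript, so their TPM cannot shift in this way.

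The genes that work with the axonal kinesins covered a wide range. Of 27 partners found in the tables, 26 were detected, against 63.4% of all protein-coding genes, and their median was 40.03 TPM in replicate 1 and 44.32 TPM in replicate 2. Fez1, a cargo adaptor of kinesin-1, had 400.2 TPM in replicate 1 and 499.1 TPM in replicate 2. Klc1, the kinesin-1 light chain of neurons, had 414.6 and 465.5 TPM, which is 6.01 ± 0.09 times Klc2 (SD over 2 libraries). Arl8a, a small GTPase that couples lysosomes and vesicles to kinesins, had 260.2 and 290.8 TPM. Hap1, an adaptor that binds huntingtin, had 191.2 and 216.0 TPM. The lowest partners were Dennd4a, with 3.22 and 3.10 TPM, and the light chain Klc3, with 3.35 and 0.97 TPM. The 28th gene of the list, Kifbp, is named Kif1bp in the annotation and is a member.

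The mitotic members were lower than the axonal ones. Their median was 6.11 TPM in replicate 1 and 2.87 TPM in replicate 2, beside 6.87 and 5.50 TPM over all protein-coding genes. The highest was Kif22, a chromokinesin that pushes chromosome arms toward the spindle equator, with 30.46 TPM in replicate 1 and 12 TPM in replicate 2. In replicate 1, 7 of 10 axonal members lay above it, and in replicate 2 all 10 did. Taken over the lists, the mean log2(TPM + 1) of the axonal members was 6.18 in replicate 1 and that of the mitotic members 2.95, a difference of 3.23. In replicate 2 the axonal mean was 6.37 and the mitotic mean 1.93, a difference of 4.45. The axonal minus mitotic difference was therefore 3.84 ± 0.86 (SD over 2 libraries), and it came to 3.53 with transcripts of 2000 nt or more. In bulk RNA, fewer cells of a type and less RNA per cell cannot be told apart, and this holds for the difference between the lists.

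The spindle motors among the mitotic members lay below Kif22 in each library. Kif11, also known as Eg5, which slides the spindle poles apart, had 15.19 TPM in replicate 1 and 5.16 TPM in replicate 2. Kif15, which can take over part of that work, had 6.20 and 1.81 TPM, and the ratio of Kif11 to Kif15 was 2.65 ± 0.28 (SD over 2 libraries). Kif2c, known as MCAK, which removes wrong attachments at the centromere by taking microtubules apart, had 14.08 and 5.55 TPM. Its relative Kif2b was not detected: it had no counts in either library, where 3 counts would have been 0.0630 TPM in replicate 1 and 0.0528 TPM in replicate 2. Kif18a, which damps chromosome movements at the plate, had 5.52 and 2.71 TPM, and Kif18b, which trims the microtubules that reach the cell cortex, had 3.22 and 1.53 TPM. Of the Kif18b level, 29.7% and 28.45% came from Kif18b-202, a model of 382 nt with 6 and 3.27 expected counts. Kif4, a chromokinesin that also organises the central spindle, had 6.01 and 3.02 TPM, and the gene Pdzd11 overlaps 15.1% of its exonic bases on the opposite strand.

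The motors that finish division covered a wide range of levels. Kif20a, which brings the Aurora B complex to the central spindle, had 19.63 TPM in replicate 1 and 6.40 TPM in replicate 2. It was divided between coding transcripts of the same coding length, 2661 nt, with 66.0% and 63.6% in Kif20a-202 and the rest in Kif20a-201. The gene Cdc23, on the opposite strand, overlaps 29.3% of the exonic bases of Kif20a. Kif23, the motor of the centralspindlin complex, had 13.48 and 4.70 TPM. Kif20b, needed for cytokinesis in the growing mouse cortex, had 5.76 and 2.19 TPM. Kif14, which holds citron kinase at the midbody, was the lowest with counts, at 1.06 and 0.22 TPM.

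Each of the 11 mitotic members that had counts was higher in replicate 1, against 55.4% of the genes that reached 1 TPM in either library. On the log2(TPM + 1) scale, 7 of 12 mitotic members (58.3%) were higher in replicate 1 by 1 or more, against 4.09% of all protein-coding genes and 6.02% of those that reached 1 TPM in either. These 7 were Kif20a (1.48), Kif11 (1.39), Kif15 (1.36), Kif23 (1.35), Kif22 (1.28), Kif2c (1.20) and Kif20b (1.08). The median over the mitotic list was 1.14, and over all protein-coding genes 0. The axonal members went slightly the other way: 9 of 10 were lower in replicate 1, with a median log2 ratio of -0.21 and a range of -0.30 to 0.04, and none reached 1 in either direction, as 0.121% of all protein-coding genes did downward. With 1 library on each side this describes the pools and has no replicate check.

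Other genes of cell division showed the same split between the libraries. All 24 mitosis partners were higher in replicate 1, 20 of them by 1 or more on the log2 scale, with a median of 1.29 and a range of 0.51 to 1.75. The highest was Cdk1, the kinase that starts mitosis, with 115.8 TPM in replicate 1 and 44.71 TPM in replicate 2. Racgap1, which joins Kif23 in centralspindlin, had 69.64 and 48.63 TPM. Birc5, a subunit of the Aurora B complex that Kif20a moves, had 72.6 and 21.88 TPM. Cdc20, which activates the anaphase ubiquitin ligase, had 65.3 and 19.42 TPM. The lowest were Mki67, with 8.77 and 3.21 TPM, and Anln, a furrow protein, with 6.41 and 2.41 TPM.

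Markers of thymocytes and epithelium also stood higher in replicate 1, while those of red cells stood nearly level. All 16 genes of the thymocyte list were higher there, 12 of them by 1 or more on the log2 scale. They summed to 523 TPM in replicate 1 and 31.6 TPM in replicate 2, where Cd3g and Cd8a were at 0. The list also holds Prss16 (135.9 and 0.07 TPM) and Psmb11 (22.34 and 0.03 TPM), which are genes of the thymic epithelium and not of thymocytes. In replicate 2, 13 of the 16 were under 1 TPM, and the highest was Bcl11b, nearly level between the libraries with 18.1 and 17.57 TPM. All 10 epithelium markers were higher by 1 or more and summed to 758 TPM in replicate 1 and 14.4 TPM in replicate 2, with none at 0 in either library. Of 9 red cell markers found, 7 were higher in replicate 1 and none by 1 or more, with a median log2 ratio of 0.21, a range of -0.82 to 0.43 and sums of 14981 and 13131 TPM. The 15 pan-neuronal markers were all lower in replicate 1, with a median log2 ratio of -0.27. Of the 15 progenitor markers, 4 were higher in replicate 1, with a median of -0.23. The part of the thymocytes, epithelium and red cells in the levels of the mitotic members was not tested, so the replicate 1 values of the mitotic members are given beside those of replicate 2 throughout.

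**Figure D3:**
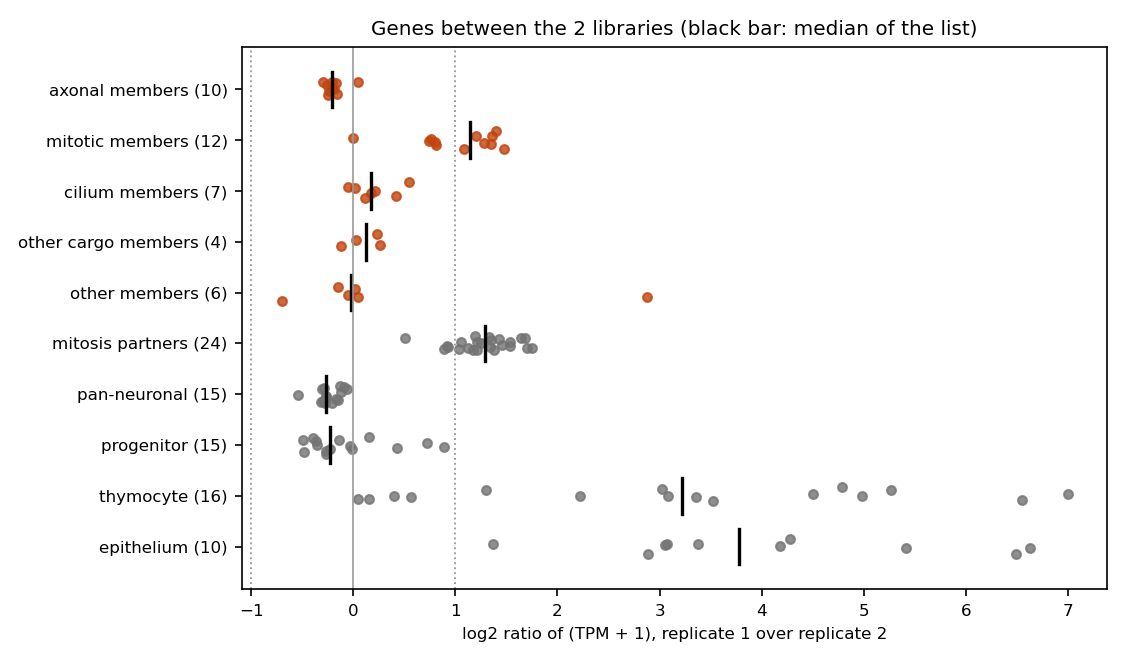
Log2 ratio of (TPM + 1) in replicate 1 over replicate 2 for each gene (points) and the median of each list (black bars), with the members in orange and other lists in grey; dotted lines mark -1 and 1. The mitotic members (median 1.14) lie with the 24 mitosis partners (median 1.29), and the axonal members (median -0.21) lie with the pan-neuronal markers (median -0.27).

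Kinesins outside the naming rule were also measured, and 5 of 6 were detected, against 63.4% of all protein-coding genes. Kifc2, a neuronal kinesin of the C-terminal motor type, had 43.73 TPM in replicate 1 and 49.53 TPM in replicate 2, and Kifc3 had 20.35 and 22.04 TPM. Stard9, a kinesin of the centrosome, had 5.67 and 6.58 TPM. Cenpe, the kinetochore motor that brings chromosomes to the plate, had 6.39 and 2.28 TPM, a log2 ratio of 1.17, close to the mitotic members. Kifc1, which bundles spindle poles, had 2.95 and 1.67 TPM, and Kifc5b had 0.83 and 0.60 TPM.

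Most of the mitotic promoters that could be searched held a short element that the sorting by role did not use. The cell cycle homology region, with the core TTTGAA, is bound by the complex that silences late cell cycle genes in resting cells, often next to CCAAT boxes bound by NF-Y. Promoters from 250 bases before to 50 bases after the start were available from RefSeq (GRCm38.p6) for 31 members, with 35 starts. The core TTTGAA was searched on both strands, so that TTCAAA counts as its reverse. It stood in 9 of 11 mitotic promoters (81.8%), against 17.5% of 16317 protein-coding genes, with all starts of a gene searched, and 13.8% of the detected ones, and in 1 of 7 axonal members, Kif1a, at the second of its starts only. Over the whole family it stood in 12 of 31 members, the remaining ones being Kif26b, where it begins at -9, and Kif27, which holds it at -191, -89 and -73. It also stood in 15 of 21 mitosis partners (71.4%).

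In most of these promoters the core lay close to the start. It began within 20 bases of the start in 7 of the 11 mitotic promoters, at -19 to 20, against 2.02% of all protein-coding genes, a limit that was set after the positions were seen. In the window from 100 bases before to 50 after the start, the same number of mitotic promoters, 7 of 11, held the core, against 7.19% of all. The stretches around the core nearest the start are shown for the 9 mitotic members that hold one, because they carry this pattern, and capitals mark the core in either orientation. Each is read 5′ to 3′ on the gene's own strand.
Kif22 (chr7:127042418-127042467, minus strand): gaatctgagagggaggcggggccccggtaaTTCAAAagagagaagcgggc
Kif11 (chr19:37376333-37376382, plus strand): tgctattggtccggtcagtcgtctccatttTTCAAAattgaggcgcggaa
Kif15 (chr9:122951032-122951081, plus strand): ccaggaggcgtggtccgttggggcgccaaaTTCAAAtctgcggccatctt
Kif23 (chr9:61946778-61946827, minus strand): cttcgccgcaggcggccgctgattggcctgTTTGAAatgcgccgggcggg
Kif18b (chr11:102925102-102925151, minus strand): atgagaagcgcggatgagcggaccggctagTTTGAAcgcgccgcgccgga
Kif20b (chr19:34922335-34922384, plus strand): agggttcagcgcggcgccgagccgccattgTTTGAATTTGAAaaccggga
Kif4 (chrX:100626054-100626094, plus strand): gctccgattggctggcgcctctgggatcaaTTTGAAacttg
Kif2c (chr4:117178856-117178905, minus strand): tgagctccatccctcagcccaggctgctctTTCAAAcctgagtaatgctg
Kif14 (chr1:136467598-136467639, plus strand): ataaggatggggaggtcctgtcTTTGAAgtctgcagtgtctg

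The first 7 of these lie within 20 bases of the RefSeq start, while the cores of Kif2c and Kif14 begin at -103 and -228. In GENCODE, Kif2c begins at 117182639 (minus strand), Kif14 at 136466343 (plus strand), Kif4 at 100625737 (plus strand) and Kif22 at 127042471 (minus strand). The stretches of Kif2c, Kif14, Kif4 and Kif22 therefore lie inside the gene, downstream of its annotated beginning, though for Kif22 only just. A core near the RefSeq start, as in Kif4, is thus not always near the GENCODE beginning of the gene. Kif20b holds the core in tandem, at 8 and 14. The Kif11, Kif23 and Kif4 stretches also hold the reverse of CCAAT, beginning at -45, -7 and -5. Kif18a and Kif2b had no core in the window, which says only that these letters are not there. Kif20a had no promoter available and was not searched. A match is a description of the letters and not a shown binding site.

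For contrast, the stretches around the start are shown for Kif5c, the highest axonal member by long transcripts, and for the neuronal Kif3c, neither of which holds the core.
Kif5c (chr2:49619259-49619308, plus strand): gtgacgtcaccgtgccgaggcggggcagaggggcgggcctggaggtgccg
Kif3c (chr12:3365105-3365154, plus strand): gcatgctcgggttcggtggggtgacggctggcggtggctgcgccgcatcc

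These stretches are 78% and 74% G or C, against 48% to 70% for those of the mitotic members. The mitotic stretches were placed on the core, itself mostly A and T, and these on the start, so the shares are not like for like. Over the whole window, however, the median GC content was 62.0% for the axonal members, 59.7% for the mitotic members and 57.0% for all protein-coding genes. The letters TGACGT, the core of the element bound by CREB, begin at -26 in Kif5c and were found in 1 of 7 axonal and 2 of 11 mitotic members, against 9.96% of all. CCAAT stood in 3 of 7 axonal and 7 of 11 mitotic members, against 42.0% of all, and 6 of the 9 mitotic members with the cell cycle core held it too. GCGGGAA, an E2F core, was found in none of these axonal or mitotic promoters, against 7.11% of all.

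**Figure D4:**
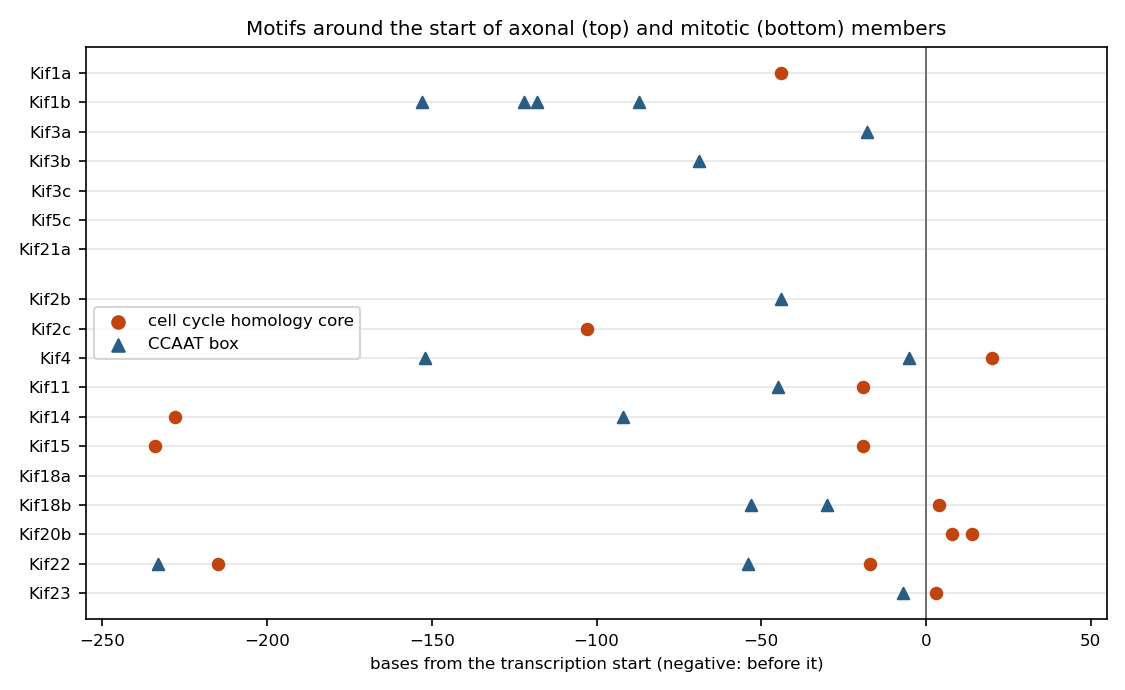
Position of the cell cycle homology core (TTTGAA in either orientation, circles) and of CCAAT boxes (triangles) in bases from the transcription start, for the 7 axonal (top) and 11 mitotic (bottom) members with a promoter; for genes with several starts, each start's matches are drawn on 1 line. Cores of 7 mitotic members lie between -19 and 20, and 1 axonal member, Kif1a, has a core.

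The axonal members had a median of 6 annotated transcripts (1 to 11) and the mitotic members 1.5 (1 to 8), and 3 of 10 axonal and 6 of 12 mitotic members had a single one. The genomic span was similar, with a median of 44.3 kb for axonal and 38.2 kb for mitotic members. The axonal members lie on 8 chromosomes and the mitotic members on 9.

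The 7 members of the cilium list were all under 5 TPM, and 5 of 7 were detected, near the share of 63.4% over all protein-coding genes. This list leaves out Kif3a (214.1 and 264.0 TPM) and Kif3b (14.91 and 17.97 TPM), which also drive transport inside cilia but were counted as axonal. Kif17, which works in sensory cilia and in dendrites, was the highest of the list, with 4.08 TPM in replicate 1 and 4.27 TPM in replicate 2. A retained intron transcript, Kif17-203, took 52.0% and 40.9% of it, and the coding Kif17-202 took 24.5% and 26.2%. Kif9, of motile cilia, had 2.52 and 2.47 TPM, divided between the coding transcripts Kif9-201 (65.1% and 74.0%) and Kif9-202 (34.9% and 25.99%). Kif6, whose loss impairs the cilia of ependymal cells in mice, had 3.03 and 1.77 TPM, but 51.6% and 39.8% of that was a retained intron transcript, Kif6-201. Kif24, which restrains cilium formation at the mother centriole, had 2.42 and 1.96 TPM. Kif7, the Hedgehog pathway regulator at the cilium tip, had 1.58 and 1.29 TPM, and 19.1% of its exonic bases overlap an antisense gene, 9330171B17Rik. Its relative Kif27 had 1.13 and 0.97 TPM, and Kif19a, which sets the length of motile cilia, 0.84 and 0.38 TPM. Of 8 ependymal markers, 6 were detected, with a median log2 ratio between the libraries of -0.02.

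The cargo motors of many cell types were low as well. Kif13a, which moves endosomes, had 5.66 TPM in replicate 1 and 6.24 TPM in replicate 2. Its relative Kif13b had 1.76 and 1.35 TPM, a ratio to Kif13a of 0.264 ± 0.067 (SD over 2 libraries). Kif16b, which carries early endosomes, had 2.89 and 2.25 TPM. Kif1c, a vesicle motor related to Kif1a and Kif1b, had 1.37 and 1.33 TPM. None of these 4 differed between the libraries by 1 or more on the log2 scale.

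Among the other members, Kif1bp had 56.59 TPM in replicate 1 and 62.87 TPM in replicate 2, below the axonal motors it binds, Kif1a and Kif1b. With transcripts of 2000 nt or more, Kif1bp had 54.44 and 60.08 TPM, nearly level with Kif1b at 53.6 and 61.23 TPM. Kif2a, which takes microtubules apart and prunes axon branches in mice, had 39.05 and 64.25 TPM. Kif2a-205, a coding model of 288 nt, took 41.3% and 54.5% of that on 67.7 and 175 expected counts, while the coding Kif2a-201 of 5304 nt took 39.5% and 28.9% on 1782 and 2558. With transcripts of 2000 nt or more, Kif2a had 22.52 and 28.67 TPM, which narrowed the gap between the libraries. Kif2a was 2.77 times its mitotic relative Kif2c in replicate 1 and 11.6 times in replicate 2, and 1.65 and 5.57 times with those long transcripts. The gene Dimt1, on the opposite strand, overlaps 19.2% of the exonic bases of Kif2a. Kif26b and Kif26a, atypical members thought to lack motor activity, were even between the libraries, with 8.67 and 9.05 TPM for Kif26b and 3.46 and 3.31 TPM for Kif26a. Kif28 had 2 expected counts in each library, below the 3 counts that a count of 0 allows.

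Kif12 differed most between the libraries. This gene of chromosome 4 (63165630 to 63172131, minus strand, GRCm38) encodes an epithelial kinesin that is linked to cholestatic liver disease in humans. It had 365 expected counts and 6.73 TPM in replicate 1, and 4 expected counts and 0.05 TPM in replicate 2, a log2 ratio of (TPM + 1) of 2.88. The epithelium markers, as given above, summed to 758 TPM in replicate 1 and 14.4 TPM in replicate 2, and their part in the Kif12 level was not tested. Of the 39 members, 8 (20.5%) were higher in replicate 1 by 1 or more, the 7 mitotic members named above and Kif12, and none was lower by that much. The other 31 members, the axonal ones among them, stayed within that distance.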

How the data were processed

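For each library the authors deposited tables of genes and of transcripts, quantified on mm10 with GENCODE M4 as the sample notes state. Which aligner and quantifier were run, and whether strand was used, is not stated there. Both tables give, per the file headers, the expected count, a model's share of the reads, and TPM. A posterior mean TPM, a score per the file headers, served only as an alternative. The deposited transcript tables also give each transcript's percent of its gene. GENCODE M21 (GRCm38) supplied symbols, gene types and positions, matched by identifier without version for 42462 of 43346 genes. RefSeq promoters (GRCm38.p6) matched 31 of 39 members by symbol or gene identifier. A stretch past the start was found within the first 1500 bases of an annotated transcript for 29 of these 35 promoters.

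Levels of long transcripts are sums of deposited transcript TPM. Rounded expected counts gave scaling factors with edgeR 4.0.16 and DESeq2 1.42.0 (R 4.3.3), and no model was fitted. Other steps used Python 3.11.15, numpy 2.4.6, pandas 2.3.3 and matplotlib 3.10.9, and were tested on simulated data. Alternatives were other detection levels, pseudocounts, scalings and filters, narrower lists, and each library left out. Floors of 3 counts cover counting error only. An SD over 2 libraries is the distance between 2 pools divided by the square root of 2. Every member was named, with the 4 highest and 2 lowest genes by mean TPM of the lists of partners, other kinesins and mitosis partners. Transcripts were given for members with a second transcript at 20% or more in both libraries, the first 10 by mean TPM and Kif18b. Members, lists and pairs were chosen with earlier results of these data known.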

Additional observations from a re-analysis of the deposited data

Results flagged for a closer look

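Among entries with a kinesin symbol that lie outside the protein-coding members, Kif16bos, an antisense entry beside Kif16b, had 2 expected counts in replicate 1 and 7 in replicate 2. The value in replicate 2 is above the 3 counts that a count of 0 allows, which is what brought it forward. The processed pseudogenes Kif22-ps and Kif4-ps had no counts in either library.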

How the results depend on the processing

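The number of members detected was 33 at 1 TPM, 34 at 0.5 TPM and 34 with the posterior mean, but 18 at 5 TPM, since many members lie between these levels. Leaving out 1 library in turn gave 33 to 36. The axonal minus mitotic difference ranged from 3.53 to 4.49 over the other alternatives, and from 3.23 to 4.45 when 1 library was left out. The median log2 ratio of replicate 1 over replicate 2 ranged from 1.14 to 1.36 for the mitotic members and from -0.24 to -0.19 for the axonal members under other scalings, filters and pseudocounts. A library could not be left out of these ratios, since each needs both. The log2 ratio of Kif21a to Kif21b turned from 0.09 in TPM to -0.41 in CPM, which does not divide by length. Of 33 other values for the 11 pairs (CPM, posterior mean, long transcripts), 20 moved by less than the SD between the libraries and 12 by more without turning. With transcripts of 2000 nt or more, or without Kif1bp, alternatives chosen after seeing the data, 30 and 32 members were detected. In the 150 bases nearest the start, 7 mitotic promoters held the cell cycle core, against 9 in the whole window and 7.19% of all genes; 7 also held it within 20 bases of the start, a limit chosen after the positions were seen. No paired analysis was possible because the libraries form 1 group. Depth limits the scarce members: Kif14 rests on 173 and 51 expected counts, and Kif19a on 44 and 21.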
